A study of Mus musculus with 14 samples.

Results

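The step from 6 to 12 h after ultraviolet (UV) irradiation of mouse back skin was followed in 5 of the 14 libraries of a time course, 2 taken at 12 h and 3 at 6 h, over all 10980 listed genes. The libraries were chosen by the time in their labels. 4 of them form 2 matched pairs, each with a 12 h and a 6 h library of the same library set (columns that share a number format and a header style), and the third 6 h library has no 12 h partner. All mice were wild type C57BL/6 with depilated back fur, and the 12 h and 6 h groups both received the mixed UV source. The other 9 libraries came from 2 h (3), 0.5 h (2) and 24 h (2) after UV and from skin labelled as untreated (2), and they entered the model as further time points. Neither the UV dose nor the hour of sampling is stated in these sources, and the age and sex of the mice are likewise unstated. The comparison asks which transcripts moved between the early and the later response.

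Skin answers UV in waves. Immediate early transcription factors and DNA damage signalling come early, and keratinocytes, the main cells of the epidermis, later switch on a stress programme of small proline-rich proteins, alarmins and stress keratins that is also known from wounds and psoriasis. Class II major histocompatibility molecules on dendritic and Langerhans cells, and the T cells of the epidermis, are classical targets of UV exposure in skin.

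Values are FPKM (fragment counts corrected for transcript length and library size), and changes are differences of log2(FPKM + 1), 12 h minus 6 h, which understate the change of genes with low values. A rise or fall is thus against 6 h and not against untreated skin. Whole reads could be recovered for 3 of the 5 libraries. Summed over listed genes they were 12703473 at 12 h in set 2, 12327907 at 6 h in set 2 and 14739473 at 6 h in set 3. They are the smallest whole numbers that fit, so these sums are lower bounds and not the full library depth. The same holds for the read numbers of single genes given below. The depth of set 1 is unknown. The set 1 values are written with fewer digits and gave no whole reads, so they may have been computed in another way, and a gap in level between set 1 and the other sets can be one of scale. Defining markers of basal and suprabasal keratinocytes, fibroblasts, fat, hair follicle, pigment cells and skeletal muscle were all listed. Ptprc (leukocytes), Cd3e (T cells), Ly6g and Retnlg (neutrophils), and Hbb-bs and Hba-a1 (red blood cells) are not among the listed genes. In such bulk samples a lower value can mean fewer cells of a type or less RNA per cell, which cannot be told apart. The labels do not say that the libraries came from separate animals, so p-values measure the spread between these samples, which may be technical.

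At 12 h, genes of the keratinocyte stress programme, antimicrobial proteins, chaperones of the endoplasmic reticulum and enzymes of sterol synthesis were among those that rose, while genes of fatty acid oxidation, class II antigen presentation and the transcription factor Klf11 were among those that fell. In a limma model with terms for time and for library set, 74 of 10980 genes passed at an adjusted p under 0.05, or 0.674% of all genes tested. Of these, 49 (0.446%) rose and 25 (0.228%) fell, and 27 moved by 1 or more on the log2 scale. The median change of all genes was -0.02, 46.4% of genes had a positive change, and 16.1% had an unadjusted p under 0.05. All 74 had the same sign in both matched pairs, against 61.2% of all genes. The 12 h and 6 h values did not overlap for 41 of the 49 that rose, where 9.53% of all genes were higher without overlap, and for 22 of the 25 that fell, where 8.93% were lower without overlap. The test that called the 74 uses these same libraries and favours such genes, so neither agreement in sign nor lack of overlap is separate support. The changes were larger in set 1 than in set 2 for 48 of the 74.

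These calls rest on few libraries. Without the 12 h set 1 library limma called 0 genes (lowest adjusted p = 0.0787, 959 genes at an unadjusted p under 0.05), so each call below was lost there. It called 25 without the 12 h set 2 library, and 17 without the 6 h library from set 1, 5 without that from set 2 and 254 without that from set 3. Leaving out another library gave 34 without either untreated library, 27 and 28 without those at 0.5 h, 29, 42 and 36 without those at 2 h, and 107 and 108 without those at 24 h. Without the set as a term only Klf11 passed, with 357 genes (3.25%) at an unadjusted p under 0.05. With the mean level of the skeletal muscle list as a covariate, Klf11 and Rn45s passed. The summed level of the 30 measured muscle genes was 7589 and 5466 FPKM at 12 h, against 10842, 7131 and 6533 FPKM at 6 h.

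**Figure D1:**
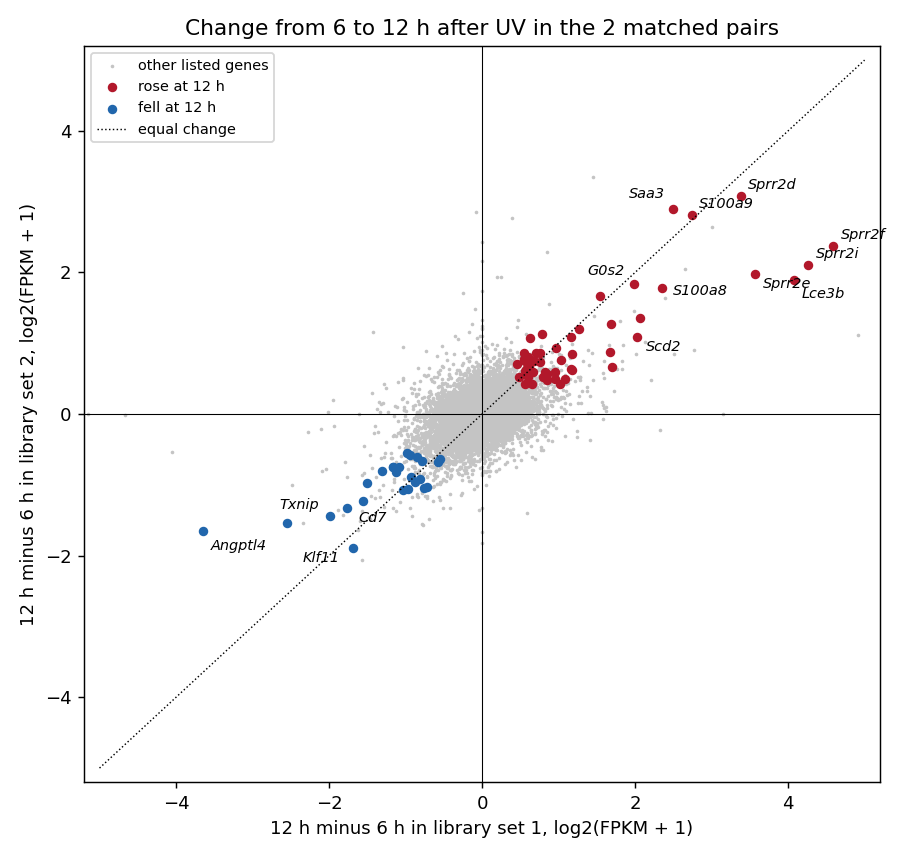
Change of each listed gene from 6 to 12 h in library set 1 (horizontal axis) and in library set 2 (vertical axis), both as 12 h minus 6 h on the log2(FPKM + 1) scale. Red points are the 49 genes that rose and blue points the 25 that fell; all 74 lie in the 2 quadrants where both pairs have the same sign.

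The cornified envelope precursors of the Sprr2 family had the largest rises. They are small proline-rich proteins cross-linked under the plasma membrane of stressed keratinocytes. Of the 28 measured genes of the stress and hyperproliferation list, 8 rose and 0 fell, and the list's median change was 0.91, against -0.02 for all genes. Within the pairs it was 1.56 for set 1 and 0.96 for set 2. The number that rose was 0 without the 12 h set 1 library, 5 without that of set 2, 2 without the 6 h set 1 library, 1 without that of set 2 and 14 without that of set 3. Sprr2f stood at 30.5 and 5.50 FPKM at 12 h (sets 1 and 2), against 0.304, 0.258 and 0.433 FPKM at 6 h (sets 1, 2 and 3). Both 12 h libraries lay above all 6 h libraries, though the reads recovered in set 2 were few, 22 at 12 h against 1 at 6 h. The fitted change of Sprr2f was 3.44 ± 0.41 (SE; limma adjusted p = 0.0101), the largest rise in the table.

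Sprr2d, Sprr2e, Sprr2f and Sprr2i lie on chromosome 3 in the epidermal differentiation complex, a cluster of genes for cornified envelope proteins, between positions 92339140 and 92409271 (GRCm38.p6, the RefSeq annotation). Their promoters, from RefSeq, are shown because the 4 genes moved together and each holds 1 match to the AP-1 motif, the binding sequence of Fos and Jun proteins. The stretches run from 250 bases before to 50 bases after the gene start and cover chr3:92364937-92365236 (Sprr2f), chr3:92407741-92408040 (Sprr2i), chr3:92338890-92339189 (Sprr2d) and chr3:92351893-92352192 (Sprr2e), all on the plus strand. Capitals mark the AP-1 match.
Sprr2f: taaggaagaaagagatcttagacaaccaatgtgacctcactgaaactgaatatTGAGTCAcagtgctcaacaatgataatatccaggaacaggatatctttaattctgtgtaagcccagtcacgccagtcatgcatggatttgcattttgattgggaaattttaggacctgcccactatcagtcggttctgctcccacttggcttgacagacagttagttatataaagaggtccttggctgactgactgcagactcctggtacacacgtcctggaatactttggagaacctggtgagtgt
Sprr2i: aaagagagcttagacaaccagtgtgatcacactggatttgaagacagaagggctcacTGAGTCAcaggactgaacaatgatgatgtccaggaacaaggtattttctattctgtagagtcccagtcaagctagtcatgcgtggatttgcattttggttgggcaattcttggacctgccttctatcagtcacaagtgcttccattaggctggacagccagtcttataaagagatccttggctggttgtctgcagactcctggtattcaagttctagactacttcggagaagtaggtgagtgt
Sprr2d: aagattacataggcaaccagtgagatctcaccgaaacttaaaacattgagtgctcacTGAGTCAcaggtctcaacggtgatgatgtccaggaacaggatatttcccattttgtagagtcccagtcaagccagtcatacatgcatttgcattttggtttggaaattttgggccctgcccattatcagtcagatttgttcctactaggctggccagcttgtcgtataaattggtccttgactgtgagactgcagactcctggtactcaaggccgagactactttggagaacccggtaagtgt
Sprr2e: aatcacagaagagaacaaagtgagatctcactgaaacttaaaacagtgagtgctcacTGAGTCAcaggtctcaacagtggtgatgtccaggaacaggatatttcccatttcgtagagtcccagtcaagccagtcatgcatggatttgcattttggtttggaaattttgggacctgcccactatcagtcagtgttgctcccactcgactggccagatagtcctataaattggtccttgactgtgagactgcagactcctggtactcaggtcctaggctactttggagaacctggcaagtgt
The match begins 197 bases upstream of the start in Sprr2f and 193 bases upstream in the other 3. Read base by base without gaps, the Sprr2d and Sprr2e promoters are identical at 88% of positions and the Sprr2d and Sprr2f promoters at 42.7%. TGAGTCA or TGACTCA, searched on both strands, occurs in 5.2% of the 32851 promoters of the same length, in 4.92% of the 8435 listed genes with an entry and in 5 of the 57 called genes with an entry. The fifth is Ccl27a, which fell. Of the other Sprr2 genes in the table, the promoter of Sprr2h holds a match, that of Sprr2a3 does not, and Sprr2g has no entry. A match describes the letters of this window and says nothing about which factor was bound.

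Sprr2i was at 27.1 and 6.05 FPKM at 12 h, against 0.462, 0.636 and 2.67 FPKM at 6 h, a change of 2.93 ± 0.44 (limma adjusted p = 0.0239). Sprr2d was at 50.7 and 9.39 FPKM at 12 h, against 3.95, 0.230 and 7.45 FPKM at 6 h, and Sprr2e at 17.9 and 2.94 FPKM at 12 h, against 0.584, 0 and 1.02 FPKM at 6 h. Their changes were 2.86 and 2.65, and in all 3 genes both 12 h values exceeded every 6 h value. The reads recovered in set 2 at 6 h were 5 of Sprr2i, 2 of Sprr2d and 0 of Sprr2e. The set 1 value at 12 h was several times that of set 2 in each Sprr2 gene that rose. At 6 h this gap was absent in Sprr2i and small in Sprr2f (0.304 and 0.258 FPKM), but present in Sprr2d and Sprr2e. The change within set 1 and set 2 was 4.59 and 2.37 for Sprr2f, and 4.26 and 2.11 for Sprr2i. It was 3.38 and 3.08 for Sprr2d, and 3.57 and 1.98 for Sprr2e. The source of this difference was not tested. Reads from near-identical copies may be assigned to the wrong member, so the split between them is uncertain. Sprr2g, Sprr2h and Sprr2a3 did not pass, with changes of 2.30, 1.51 and -0.89, and neither did Sprr1a and Sprr1b, with 0.14 and 0.88.

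Lce3b, a late cornified envelope gene of the group linked to barrier repair and psoriasis in humans, was at 15.9 and 2.72 FPKM at 12 h, against 0, 0 and 1.17 FPKM at 6 h. Its change was 2.73 ± 0.46 (limma adjusted p = 0.0360), and set 2 held 10 reads at 12 h and 0 at 6 h. Krt6a, a keratin of wounded and hyperproliferative epidermis, was at 488 and 252 FPKM at 12 h, against 150, 158 and 307 FPKM at 6 h. Krt6a rose within both pairs, by a fitted 1.15 ± 0.19, but the set 3 library at 6 h lay above the set 2 library at 12 h. Reads of Krt6a can also match its near-identical neighbour Krt6b, whose change of 2.03 did not pass (adjusted p = 0.129). Krt16 and Krt17, the other stress keratins, had changes of 0.95 and 0.40 and did not pass.

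Some alarmins and antimicrobial proteins rose next to these. Of 16 measured genes of the antimicrobial and acute phase list, 5 rose and 0 fell, with a median change of 0.58 and a lowest change of -0.81. S100a8 and S100a9 are among these 5 and were already counted among the 8 that rose in the stress list. The summed level of the antimicrobial list was 1295 and 666 FPKM at 12 h, against 1328, 621 and 745 FPKM at 6 h, and was lower at 12 h in set 1. With the 6 and 12 h libraries alone, a fit with almost no residual degrees of freedom, 8 members rose and 3 fell. The number that rose was 0 without the 12 h set 1 library or the 6 h set 2 library, 1 without the 12 h set 2 library or the 6 h set 1 library, and 5 without that of set 3. S100a9 encodes a subunit of calprotectin, a calcium-binding, zinc-sequestering protein of neutrophils and stressed keratinocytes. It was at 112 and 37.5 FPKM at 12 h, against 15.9, 4.49 and 8.55 FPKM at 6 h, a change of 2.77 ± 0.42 (limma adjusted p = 0.0263) without overlap. Its partner S100a8 was at 160 and 27.2 FPKM at 12 h, against 30.6, 7.21 and 7.90 FPKM at 6 h, a change of 1.99 ± 0.22 (limma adjusted p = 0.0101). For S100a8 the set 1 library at 6 h lay just above the set 2 library at 12 h, so the groups overlap although both pairs rose. Both genes lie on chromosome 3 like the Sprr2 genes, S100a8 at 90669071 to 90670034.

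Saa3, an acute phase serum amyloid, was at 7.32 and 25.2 FPKM at 12 h, against 0.479, 2.51 and 2.36 FPKM at 6 h. Its change was 2.57 ± 0.49, close to the threshold (limma adjusted p = 0.0493), and set 2 was higher than set 1, the reverse of the Sprr2 genes. Slpi, a secreted inhibitor of leukocyte proteases, was at 10.3 and 4.52 FPKM at 12 h, against 1.71, 1.16 and 2.86 FPKM at 6 h, and Pglyrp3, a peptidoglycan-binding protein, was at 4.80 and 4.81 FPKM at 12 h, against 0.809, 1.41 and 1.84 FPKM at 6 h. Slpi rose by 1.69 and Pglyrp3 by 1.36, neither with overlap. Lcn2, a siderophore-binding protein, had a change of 2.47 and did not pass (adjusted p = 0.0764). The summed level of the 4 measured neutrophil markers (S100a8, S100a9, Lcn2 and Il1r2, 3 of which keratinocytes also make) was 303 and 127 FPKM at 12 h, against 71.3, 34.3 and 47.0 FPKM at 6 h. Of these 4, 3 had a positive change, and Il1r2 went the other way with -0.58. The part of neutrophils in these rises was not tested.

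**Figure D2:**
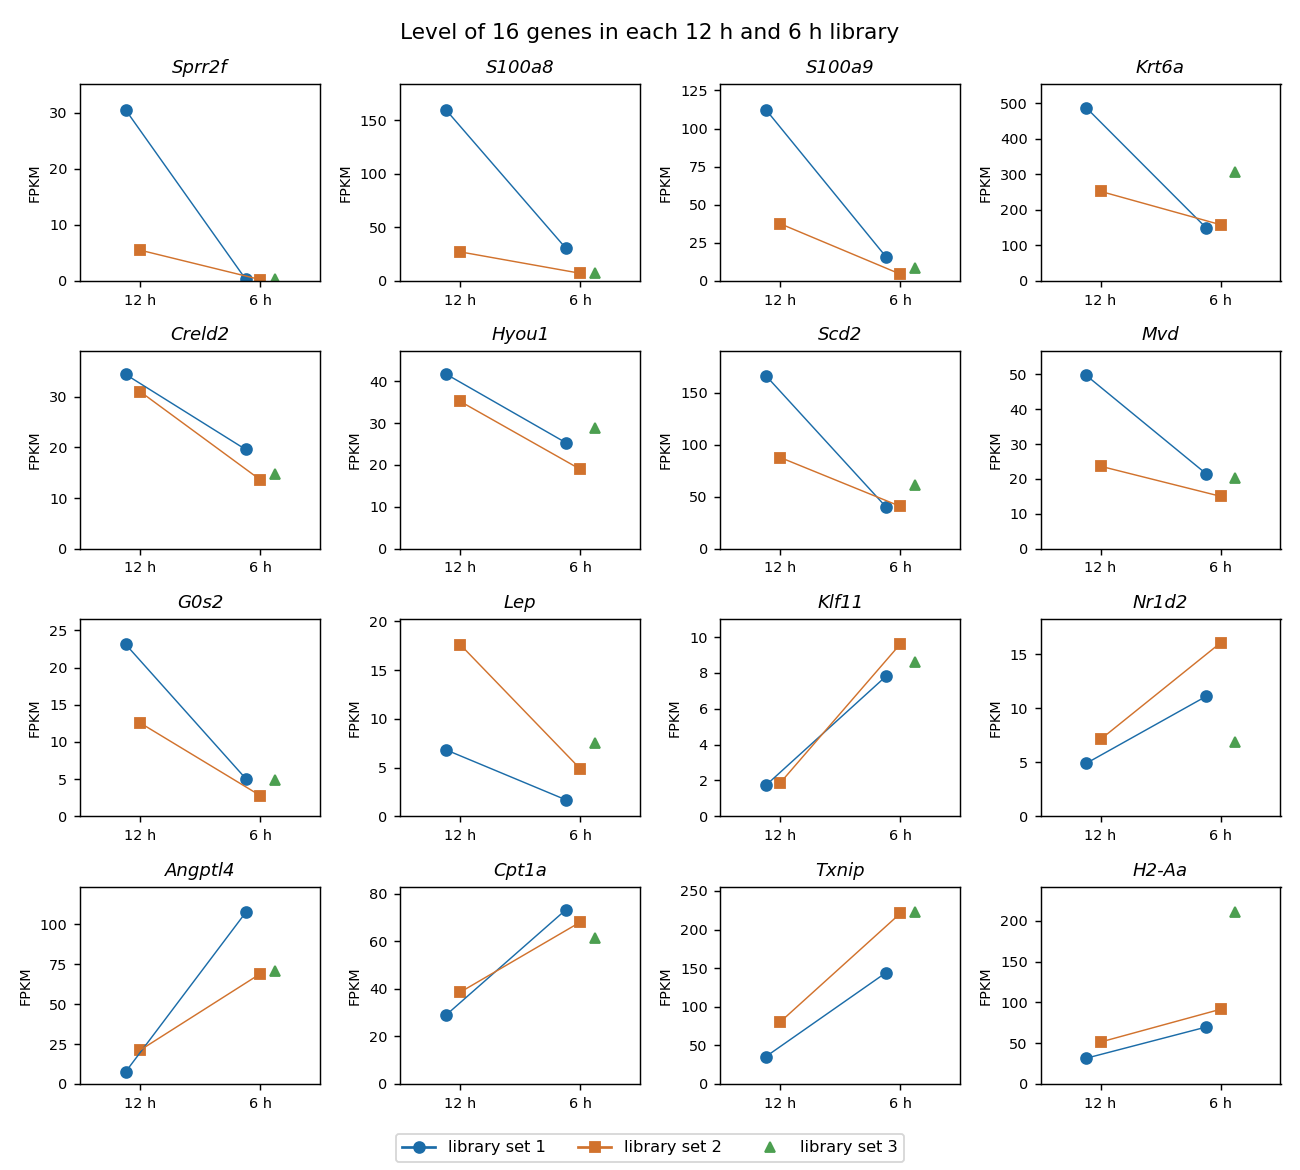
Level of 16 genes (FPKM, axes from 0) in each 12 h library and each 6 h library. Lines join the libraries of the same set; the green triangle is the set 3 library at 6 h, which has no 12 h partner. Sprr2f, Creld2, Scd2 and G0s2 are higher in both 12 h libraries than in any 6 h library, and Klf11, Angptl4 and Cpt1a lower; Krt6a, S100a8, Lep and Nr1d2 overlap.

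Chaperones of the endoplasmic reticulum formed another group. The unfolded protein response raises them when secretory proteins accumulate unfolded, through the factors ATF6 and XBP1. Of 30 measured genes of this response and of the integrated stress response, 4 rose and 0 fell, and the median change was 0.23. The number that rose was 0 without either 12 h library or the 6 h set 2 library, 2 without that of set 1 and 9 without that of set 3. Creld2, a secreted disulphide isomerase-like protein, was at 34.4 and 31.0 FPKM at 12 h, against 19.6, 13.6 and 14.7 FPKM at 6 h, a change of 1.06 ± 0.15 (limma adjusted p = 0.0181). Hyou1, a large chaperone of the Hsp110 class in the endoplasmic reticulum, was at 41.8 and 35.2 FPKM at 12 h, against 25.3, 19.0 and 28.8 FPKM at 6 h, a change of 0.76 ± 0.09 (limma adjusted p = 0.0116). In both genes the 12 h libraries lay above all 6 h libraries and set 1 and set 2 were at like levels.

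Sdf2l1, a component of the endoplasmic reticulum chaperone complex, rose by 1.42 ± 0.25 and Pdia4, a protein disulphide isomerase, by 0.69 ± 0.11. The next members by size were Hspa5 (the chaperone BiP) at 0.69, Manf at 0.68, Calr (calreticulin) at 0.67, Pdia6 at 0.59 and Hsp90b1 at 0.58, with adjusted p of 0.0543 to 0.0951, and they did not pass. Genes of the arm driven by ATF4 had small changes that did not pass, such as Atf4 at -0.12, Trib3 at -0.16, Ddit3 at 0.28 and Asns at 0.30. Atf6b, a paralogue of Atf6 outside the list, rose by 0.66 ± 0.12. Hsph1, a cytosolic Hsp110 chaperone, rose by 0.85 ± 0.15 as 1 of 17 heat shock genes, whose median was 0.26.

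The Creld2 promoter is shown because it is the only promoter of the 57 called genes with an entry that holds the endoplasmic reticulum stress element, CCAAT and CCACG with 9 bases between them. The element occurs in 0.119% of the 32851 promoters. The stretch is chr15:88819396-88819695 on the plus strand of GRCm38.p6, and the capitals mark the element, which reads on the opposite strand and begins 126 bases upstream of the start.
Creld2: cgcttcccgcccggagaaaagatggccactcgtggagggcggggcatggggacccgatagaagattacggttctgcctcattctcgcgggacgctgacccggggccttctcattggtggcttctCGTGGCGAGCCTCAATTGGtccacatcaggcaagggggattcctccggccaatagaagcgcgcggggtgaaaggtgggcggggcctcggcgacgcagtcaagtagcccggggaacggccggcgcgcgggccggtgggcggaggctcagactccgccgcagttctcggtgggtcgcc
Binding of ATF6 or XBP1 was not measured.

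Enzymes of cholesterol and fatty acid synthesis had mostly positive changes. The SREBP factors control these genes as a unit, and epidermal sterols serve the water barrier. Of 36 measured genes, 3 rose and 0 fell, and 28 had a positive change, against 46.4% of all genes. The median was 0.46, against -0.02 for all genes. The number that rose was 0 without the 12 h set 1 library or the 6 h set 1 or set 2 library, 2 without the 12 h set 2 library and 10 without the 6 h set 3 library. Scd2, a desaturase that makes monounsaturated fatty acids, was at 167 and 87.8 FPKM at 12 h, against 40.2, 40.7 and 61.0 FPKM at 6 h, a change of 1.41 ± 0.21 (limma adjusted p = 0.0263). Mvd, an enzyme of the mevalonate pathway, was at 49.8 and 23.7 FPKM at 12 h, against 21.5, 15.03 and 20.3 FPKM at 6 h, and Cyp51, the lanosterol demethylase, at 40.3 and 34.9 FPKM at 12 h, against 18.5, 24.6 and 28.7 FPKM at 6 h. Mvd rose by 0.998 and Cyp51 by 0.76, and in all 3 genes the groups did not overlap.

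Idi1 and Msmo1, enzymes of sterol synthesis, had changes of 1.14 and 0.86 and did not pass (adjusted p = 0.0621 for both). Aacs, which activates acetoacetate for lipid synthesis, rose by 0.96 ± 0.13, to 46.5 and 25.3 FPKM at 12 h, against 22.2, 14.5 and 23.9 FPKM at 6 h. The unirradiated level of Scd2 was 107 and 76.6 FPKM and that of Mvd 36.2 and 16.8 FPKM.

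G0s2, an inhibitor of the fat lipase ATGL, had the second smallest p in the table. It was at 23.1 and 12.6 FPKM at 12 h, against 5.07, 2.79 and 4.85 FPKM at 6 h, a change of 2.02 ± 0.20 (limma adjusted p = 0.00630). Lep, the hormone leptin of fat cells, was at 6.82 and 17.6 FPKM at 12 h, against 1.69, 4.87 and 7.50 FPKM at 6 h, a change of 1.51 ± 0.27 with overlap through the set 3 library. Pparg, the master regulator of fat cells and sebocytes, rose by 0.81 ± 0.14 to 6.73 and 6.85 FPKM at 12 h, against 3.57, 3.72 and 3.09 FPKM at 6 h. The untreated libraries of sets 1 and 2 had 8.31 and 6.53 FPKM of Pparg, and 9.70 and 9.78 FPKM of G0s2. The 20 measured adipocyte genes as a list had a median of -0.28, with Lep alone called. Adipoq (adiponectin) was at 34.5 and 43.6 FPKM at 12 h, against 73.0, 50.8 and 59.1 FPKM at 6 h, and did not pass (adjusted p = 0.395).

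Some genes of fatty acid oxidation and fasting fell. PPAR alpha and its relatives switch on such genes when fatty acids are the fuel. Of 23 measured genes, 5 fell and 0 rose, and the median change was -0.45. The number that fell was 0 without the 12 h set 1 library, 4 without that of set 2, 1 without the 6 h set 1 or set 2 library and 9 without that of set 3. Cpt1a, which carries long-chain fatty acids into oxidation, was at 28.9 and 38.6 FPKM at 12 h, against 73.3, 68.1 and 61.2 FPKM at 6 h, a change of -1.06 ± 0.13 (limma adjusted p = 0.0101). Both 12 h values of Cpt1a lay below every 6 h value.

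Angptl4, a secreted inhibitor of lipoprotein lipase, was at 7.67 and 21.2 FPKM at 12 h, against 107, 69.0 and 70.9 FPKM at 6 h, and fell by 2.45 ± 0.45 on the log2 scale (limma adjusted p = 0.0424). Its untreated level was 15.5 and 23.4 FPKM. Txnip, the thioredoxin-interacting protein that limits glucose uptake, was at 35.5 and 80.5 FPKM at 12 h, against 144, 221 and 223 FPKM at 6 h, and fell by 1.63 ± 0.24. Hadhb, a subunit of the mitochondrial trifunctional protein of beta-oxidation, fell by 0.71 ± 0.13. Pdk4, which blocks pyruvate use in mitochondria, had a change of -2.37 but did not pass (adjusted p = 0.154): it was at 2.97 and 72.7 FPKM at 12 h, against 64.7, 106 and 29.3 FPKM at 6 h. The change of Pdk4 was -4.05 in set 1 and -0.54 in set 2. Cpt2 and Acadvl of the same list had changes of -0.01 and -0.04.

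Klf11, a Krüppel-like transcription factor of the TGF-beta early response, had the smallest p of all genes. It was at 1.73 and 1.87 FPKM at 12 h, against 7.81, 9.62 and 8.62 FPKM at 6 h, a change of -1.77 ± 0.15 (limma adjusted p = 0.00299). The 12 h libraries of both sets were at nearly the same level and far below all 6 h libraries, and the untreated libraries had 3.98 and 4.07 FPKM. In the model without the set the change was -1.78 ± 0.20 (adjusted p = 0.0309). Of the other 30 measured immediate early genes, 0 passed. Fos, Jun and Egr1 had changes of -0.23, -0.07 and -0.01, Atf3 of 0.44 and Zfp36, which destabilises cytokine mRNA, of -0.67.

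Other genes that fell have differing known roles. Ctgf, a matricellular target of YAP and TGF-beta, was at 18.1 and 11.9 FPKM at 12 h, against 31.3, 25.5 and 33.8 FPKM at 6 h, a change of -0.83 ± 0.15. Spry1, an inhibitor of growth factor signalling through MAP kinase, fell by 0.73 ± 0.10, and Ccng2, a cyclin of quiescent cells under FOXO control, fell by 0.64 ± 0.09. Areg, the epidermal growth factor receptor ligand amphiregulin, was at 15.5 and 10.5 FPKM at 12 h, against 26.1, 25.1 and 27.9 FPKM at 6 h; its change of -1.14 ± 0.22 just missed the threshold (limma adjusted p = 0.0530). Hnrnpdl and Ptbp2, both RNA-binding regulators of splicing, had changes of -0.95 and -0.99, and Ptbp2 overlapped through the set 3 library. Rhebl1, a small GTPase related to Rheb, fell by 0.99 and Cilp, a matrix protein, by 0.94, neither with overlap.

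Rn45s, the ribosomal RNA precursor, was at 311 and 204 FPKM at 12 h, against 880, 401 and 649 FPKM at 6 h, a change of -1.35 ± 0.24 (limma adjusted p = 0.0396). Whether ribosomal RNA was removed is not stated in these sources, so the level of Rn45s may also depend on library preparation, which was not tested. Of the 37 genes of the ribosome biogenesis list, which includes Rn45s, 31 had a positive change, 0 rose, and the median was 0.14.

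Nr1d2, the clock repressor REV-ERB beta, was at 4.89 and 7.11 FPKM at 12 h, against 11.1, 16.03 and 6.84 FPKM at 6 h, a change of -1.09 ± 0.17 (limma adjusted p = 0.0269) with overlap through the set 3 library. It was the only 1 of 18 measured clock genes that passed. Its paralogue Nr1d1 had a change of -0.71 and Tef of -0.49, Per1, Per2, Per3 and Dbp lay between -0.38 and -0.36, and Arntl and Clock were at 0.15 and 0.09. A change with the time after UV and a change with the hour of the day cannot be told apart here.

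Several class II antigen presentation genes fell. Of 11 measured dendritic and Langerhans cell genes, 4 fell and 0 rose, and the median change was -0.60. The number that fell was 0 without the 12 h set 1 library or the 6 h set 1 or set 2 library, 4 without the 12 h set 2 library and 5 without the 6 h set 3 library. H2-Aa, a class II alpha chain, was at 31.4 and 51.3 FPKM at 12 h, against 69.7, 91.5 and 211 FPKM at 6 h, a change of -0.94 ± 0.12 (limma adjusted p = 0.0181). H2-Ab1, its beta chain partner, was at 28.3 and 43.3 FPKM at 12 h, against 64.8, 73.7 and 166 FPKM at 6 h. H2-Eb1 was at 10.1 and 21.5 FPKM at 12 h, against 24.0, 36.9 and 91.3 FPKM at 6 h, and Cd74, the invariant chain, at 76.0 and 72.9 FPKM at 12 h, against 150, 108 and 242 FPKM at 6 h. In all 4 genes every 12 h value was below every 6 h value, and the set 3 library at 6 h was the highest. The changes of H2-Ab1, H2-Eb1 and Cd74 were -0.94, -0.93 and -0.77.

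H2-Aa and H2-Eb1 promoters are shown because both hold the Y box, CTGATTGG, of class II promoters, which the factor NF-Y binds. The H2-Aa stretch is chr17:34287774-34288073 on the minus strand and the H2-Eb1 stretch chr17:34305617-34305916 on the plus strand (RefSeq, GRCm38.p6). Capitals mark the Y box, which begins 51 bases upstream of the start in H2-Aa and 62 in H2-Eb1.
H2-Aa: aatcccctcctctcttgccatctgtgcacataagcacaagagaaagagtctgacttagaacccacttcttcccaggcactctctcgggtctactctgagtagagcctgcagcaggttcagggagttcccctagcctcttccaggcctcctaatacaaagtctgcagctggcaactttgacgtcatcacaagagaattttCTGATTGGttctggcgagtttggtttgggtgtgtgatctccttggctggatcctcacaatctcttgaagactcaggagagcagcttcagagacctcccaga
H2-Eb1: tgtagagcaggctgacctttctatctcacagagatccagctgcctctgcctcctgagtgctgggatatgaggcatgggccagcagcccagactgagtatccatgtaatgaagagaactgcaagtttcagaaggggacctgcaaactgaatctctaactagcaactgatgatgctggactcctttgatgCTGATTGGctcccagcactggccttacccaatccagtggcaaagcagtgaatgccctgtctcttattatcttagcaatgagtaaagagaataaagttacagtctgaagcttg
Searched on both strands, the Y box occurs in 4.1% of all promoters, in 6.31% of those of the listed genes and in 6 of the 57 called genes with an entry. The other 4 are Klf11, Pdia4, Tfcp2 and Txnip. H2-Ab1 and Cd74, which also fell, are not among the 6, for want of a match in this window or of an entry.

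Langerhans cell markers outside class II presentation did not pass. Cd207 (langerin) was at 1.97 and 1.54 FPKM at 12 h, against 2.02, 1.74 and 6.46 FPKM at 6 h, with a change of -0.14 (adjusted p = 0.837), and Epcam was at 0.06. The 4 measured markers of T and natural killer cells summed to 30.4 and 27.2 FPKM at 12 h, against 62.8, 37.1 and 61.0 FPKM at 6 h, and most of each sum was Thy1, which fibroblasts also express. Cd7 was at 1.15 and 0.879 FPKM at 12 h, against 6.30, 3.70 and 6.21 FPKM at 6 h, a change of -1.45 ± 0.17 (limma adjusted p = 0.0101), with 12 reads at 12 h in set 2 and 49 and 98 at 6 h in sets 2 and 3. Cd3g, a chain of the T cell receptor complex, was at 0.664 and 0.893 FPKM at 12 h, against 4.86, 4.06 and 2.64 FPKM at 6 h, and did not pass (change -1.51, adjusted p = 0.0811). Nkg7, a protein of cytotoxic granules, had a change of -1.05 and Thy1 of -0.36, so all 4 measured members of the list were lower, with Cd7 alone passing. The 16 measured monocyte and macrophage genes had a median of -0.19, and 0 passed.

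Ccl27a, a keratinocyte chemokine for skin-homing T cells, was at 99.1 and 10.3 FPKM at 12 h, against 189, 19.8 and 20.8 FPKM at 6 h. It fell by 0.97 ± 0.16 (limma adjusted p = 0.0298), and since set 1 lies far above sets 2 and 3 its groups overlap. Ager, the receptor for advanced glycation end products and for calprotectin, was at 2.65 and 2.33 FPKM at 12 h, against 9.75, 6.83 and 3.99 FPKM at 6 h, a change of -1.36 ± 0.19 (limma adjusted p = 0.0181). Il1b, the inflammatory cytokine, differed between the sets, with 1.85 and 15.4 FPKM at 12 h, against 1.16, 1.42 and 4.92 FPKM at 6 h, and did not pass (adjusted p = 0.492). Tnfrsf18, the receptor GITR, known from regulatory T cells, rose by 0.83 ± 0.15 to 21.5 and 22.1 FPKM at 12 h, against 13.6, 9.97 and 16.2 FPKM at 6 h.

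Other genes that rose cover several functions. Gart, Umps and Pnp, enzymes of purine synthesis, pyrimidine synthesis and purine salvage, rose by 0.61, 0.73 and 0.60, Pnp with overlap through the set 3 library. Gart was at 33.7 and 28.1 FPKM at 12 h, against 22.5, 18.1 and 27.1 FPKM at 6 h. Srm, the spermidine synthase, rose by 0.67 with the same overlap, and Mettl1, a methyltransferase of transfer RNA, by 0.65. Gli2, a transcription factor of Hedgehog signalling, and Gas1, a Hedgehog co-receptor, rose by 0.69 and 0.81, Gas1 with overlap. Edn2, a vasoactive endothelin, was at 9.27 and 5.94 FPKM at 12 h, against 3.57, 2.27 and 4.08 FPKM at 6 h. Timp3, an inhibitor of matrix proteases, rose by 0.72 ± 0.13 to 82.0 and 74.7 FPKM at 12 h, against 41.8, 52.8 and 49.97 FPKM at 6 h. Actn1, an actin crosslinker of adhesion sites, rose by 0.65, G3bp1, the core protein of stress granules, by 0.56, and Nrarp, a feedback inhibitor of Notch, by 0.68. The set 3 library at 6 h lay above both 12 h values of Nrarp.

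**Figure D3:**
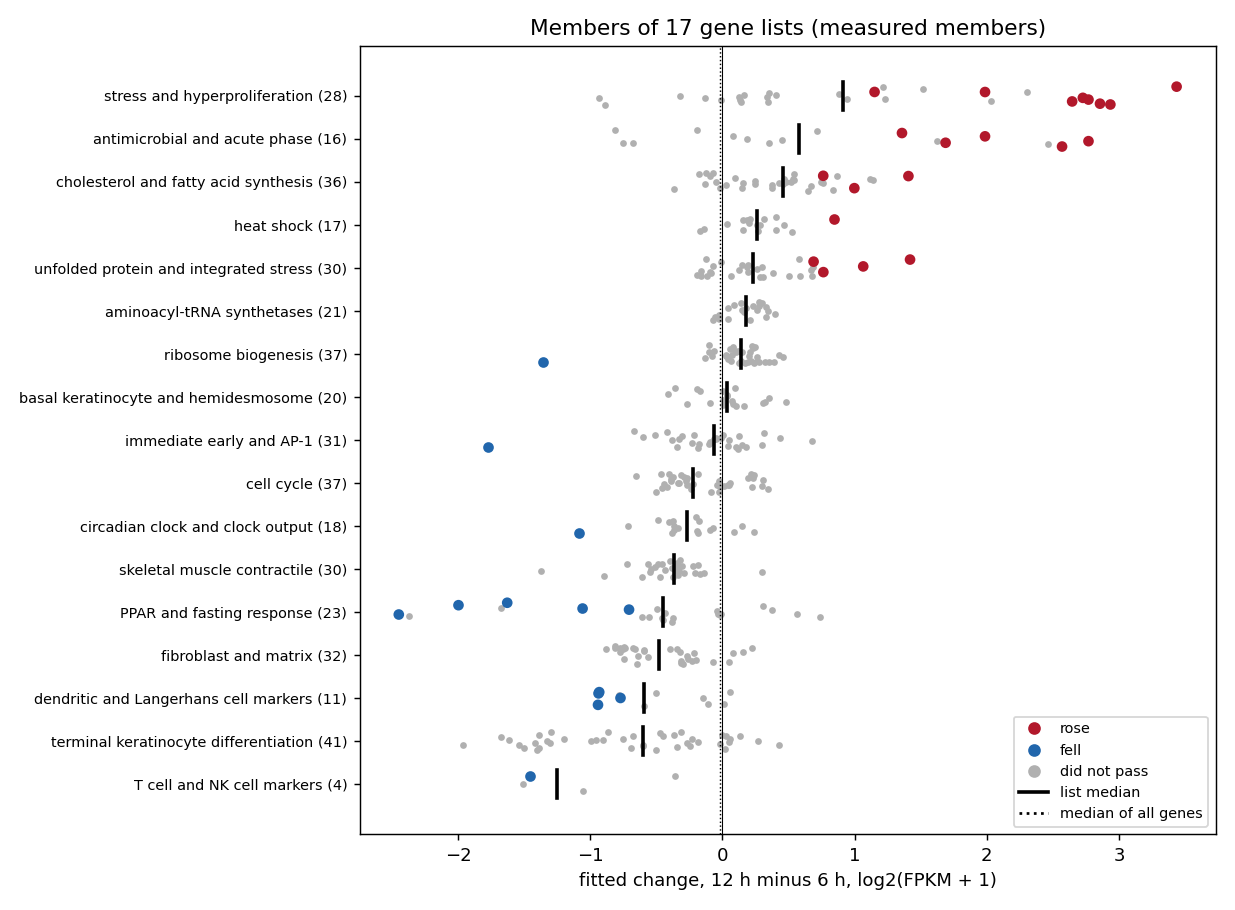
Fitted change of the measured members of 17 gene lists (12 h minus 6 h, log2(FPKM + 1)), 1 point per gene, with the number of members in brackets. Red points rose, blue points fell and grey points did not pass; the black bars are list medians and the dotted line the median of all genes, -0.02. Members that rose stand in the stress, antimicrobial, sterol, heat shock and chaperone lists, and members that fell in the fasting, class II, T cell, clock, immediate early and ribosome biogenesis lists. S100a8 and S100a9 stand in both the stress and the antimicrobial list.

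Several lists had a median well below 0 with no member called. Of 41 measured genes of terminal keratinocyte differentiation, 34 had a negative change and the median was -0.60, with 18 at an unadjusted p under 0.05. Of all 10980 genes, 5885 had a negative change and 16.1% had an unadjusted p under 0.05 in the same model. Krt10, the keratin of suprabasal cells, was at 683 and 610 FPKM at 12 h, against 1779, 1130 and 1601 FPKM at 6 h, with a change of -1.30 that did not pass (adjusted p = 0.0827). Its partner Krt1 was at 244 and 141 FPKM at 12 h, against 679, 388 and 737 FPKM at 6 h (adjusted p = 0.153). Both keratins had lower values in each 12 h library than in any 6 h library, as did 8.93% of all genes. The list summed to 7275 and 4972 FPKM at 12 h, against 10719, 6969 and 11044 FPKM at 6 h. The basal keratins Krt5 and Krt14 had changes of 0.08 and 0.10.

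The fibroblast and matrix list (32 measured) had 28 negative changes and a median of -0.48, and its sum was 1489 and 1940 FPKM at 12 h, against 2072, 2896 and 3191 FPKM at 6 h. Col1a1 was at 226 and 266 FPKM at 12 h, against 372, 490 and 523 FPKM at 6 h. The muscle list had 29 of 30 negative changes and a median of -0.37. Medians of the 25 measured p53 target genes, the 30 of nucleotide excision repair and the 38 of the proteasome lay between -0.001 and 0.05, and that of the 37 cell cycle genes at -0.22, with 0 called in each. The 17 interferon-stimulated genes had a median of 0.28 and 0 calls, and 94 subunits of oxidative phosphorylation a median of -0.05 and 0 calls.

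The step from 6 to 12 h was then set against the steps before and after it. The difference between the change from 6 to 12 h and the change from 2 to 6 h passed for 103 genes (0.938% of 10980), higher for 64 and lower for 39. Both steps share the 6 h libraries, so a value at 6 h enters them with opposite sign. Cpt1a had a change of 0.67 from 2 to 6 h and -1.06 from 6 to 12 h, a difference of -1.72 ± 0.20 (limma adjusted p = 0.0149). Ccng2 had changes of 0.64 and -0.64, a difference of -1.28 ± 0.14, at the same adjusted p. Sdf2l1 had changes of -1.03 and 1.42, and Scd2 of -0.78 and 1.41, with differences of 2.45 and 2.19. For Sprr2f the change from 2 to 6 h was 0.09 and the difference 3.35 ± 0.64 (limma adjusted p = 0.0433), and for S100a8 it was 0.17 and the difference 1.82 ± 0.35 (limma adjusted p = 0.0436). These 103 calls became 1 without the 12 h set 1 library, 26 without that of set 2, 2 without the 6 h set 1 library, 0 without that of set 2 (1532 genes at an unadjusted p under 0.05), 101 without that of set 3, and 0 without the set as a term, where 305 genes had an unadjusted p under 0.05.

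The difference from the step between 12 and 24 h passed for Klf11 alone (0.00911% of 10980), with 803 genes at an unadjusted p under 0.05. Klf11 had a change of -1.77 from 6 to 12 h and 0.62 from 12 to 24 h, a difference of -2.40 ± 0.28 (limma adjusted p = 0.0455), and stood at 2.50 and 4.33 FPKM at 24 h. This call was kept without the 6 h set 3 library, where G0s2 and Sprr2g also passed, and was lost without any other of the 5 libraries. At 24 h S100a8 was at 212 and 81.9 FPKM, Slpi at 15.5 and 15.2 FPKM and Saa3 at 23.0 and 59.0 FPKM, above their 12 h values in each set. Sprr2f was at 19.1 and 5.88 FPKM at 24 h and Creld2 at 30.9 and 30.5 FPKM. G0s2 was at 11.7 and 6.82 FPKM and Lep at 4.60 and 5.50 FPKM at 24 h, below 12 h in each set.

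**Figure D4:**
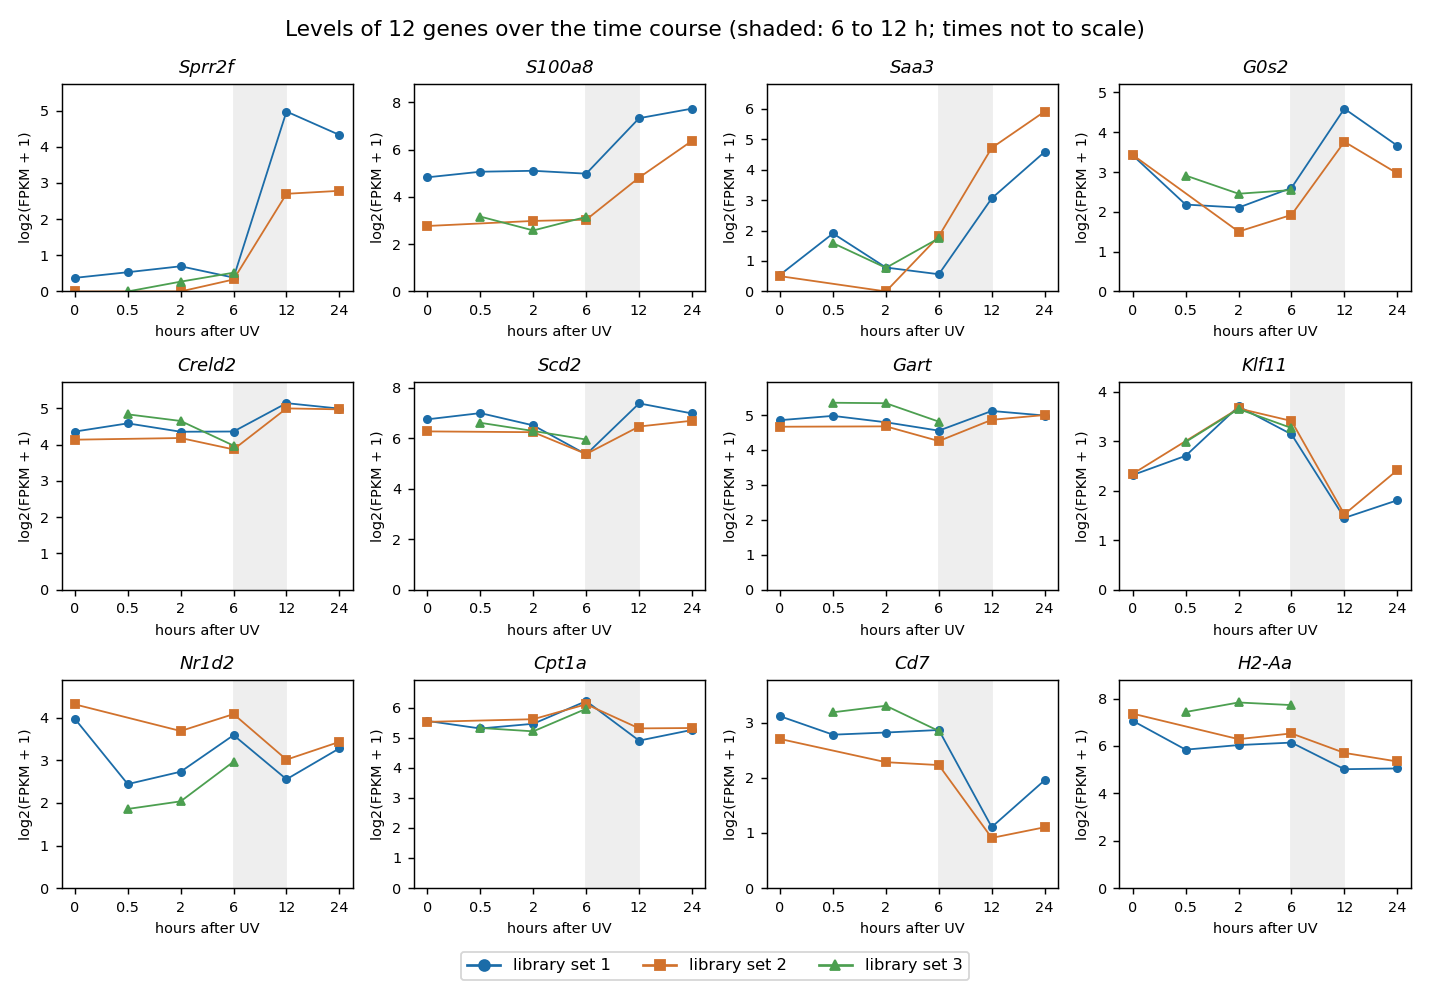
Level of 12 genes over the time course, log2(FPKM + 1) with axes from 0, from untreated skin (0 h) to 24 h after UV; the times are evenly spaced and not to scale. Lines join the libraries of a set, and the shaded band is the step from 6 to 12 h. Sprr2f stays below 1 up to 6 h and is higher at 12 and 24 h, while Cpt1a is highest at 6 h in each set.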

How the data were processed

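RNA from mouse back skin was sequenced in 14 libraries at 6 times. The authors deposited FPKM values for 10980 genes, and the submitters' processing notes name TopHat2 2.1.0, Cufflinks 2.2.1 and mouse build mm10, with no role or order. How genes were filtered and whether strand was counted is not stated there. The time of a column comes from its header; no header has a replicate number. The 3 library sets (6, 5 and 3 libraries) were told apart by the format of values and headers, except the untreated library of set 2, assigned from its correlation with the others (mean Pearson r 0.964 to set 2, 0.888 to set 3). All 28 pairs of libraries of the same set at different times deviated together from their time means (correlation 0.411 to 0.895), so the set served as the pairing block. Pairs of different sets reached 0.492. The pairs are not independent: the library assigned by correlation is among them, and at times with sets 1 and 2 alone the deviations mirror each other. The deviations of the 12 h and 6 h libraries correlated at 0.837 in set 1 and 0.675 in set 2.

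The main test was limma 3.58.1 in R 4.3.3 on log2(FPKM + 1) over all 14 libraries, with terms for time and set and an intensity trend, which leaves 6 residual degrees of freedom. Tests were two-sided, p-values were adjusted by Benjamini-Hochberg across the 10980 genes, and 0.05 was the threshold. No filter on low values was used. The script was run on data simulated from its own fitted model, which checks the code but not the library sets or the scale of set 1. Reads were recovered in sets 2 and 3 from exact ratios of whole numbers for 10952 of 10954 genes above 0. The smallest whole numbers that fit were taken. They are printed as sums over listed genes and beside a few low genes, with no test on them. An exact 0 can be a failed estimate. The libraries, the gene lists and the tests were chosen with earlier results of these data known. Genes were named by rule: the 15 largest called changes each way with the same sign in both pairs, up to 4 called members per list each way, or the 2 largest members of lists with fewer than 2 calls, and Rn45s. Other genes named were chosen after their values were seen. Positions and promoters are from RefSeq on GRCm38.p6, where 72 of the 74 called genes had a position and 57 a promoter; no coordinate is given in the deposited table. Alternatives were the model without the set, fewer libraries, other pseudocounts, filters, scalings and variance priors, and a muscle covariate. Some genes that the rule names are not reported here.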

Additional observations from a re-analysis of the deposited data

How the results depend on the processing

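Against the 74 genes called, limma called 1 without the replicate block, 129 with quantile normalization and 2 with the muscle covariate. It called 509 with the 6 and 12 h libraries alone (73 of the 74 among them). That fit reuses the same 5 libraries and leaves almost no residual degrees of freedom, so these calls are no separate support. Leaving out 1 library gave 0 to 254 calls. The difference from the step before had 103 calls, 0 without the replicate block (305 genes at an unadjusted p under 0.05) and 185 with quantile normalization. It had 0 to 101 calls with 1 of the 5 libraries from 6 and 12 h left out. The difference from the step after had 1 call, 0 without the replicate block (68 at an unadjusted p under 0.05) and 0 with quantile normalization (913). It had 0 to 3 calls with 1 of the same 5 libraries left out. Libraries of other times were not left out for these differences. The cause of these shifts was not tested. The other alternatives gave 56 to 75 calls. With library sets 1 and 2 alone, 56 genes were called and only 39 of the 74 were among them. The share of calls that rose was 66.2%, against 41.1% with the 6 and 12 h libraries alone and 55.4% with sets 1 and 2 alone. Each of the 74 kept its direction wherever it was tested, in fits that share libraries with the main fit. Of the values of named called genes under alternatives, 443 kept their call, 245 lost it and 0 reversed. Low recovered read numbers in set 2, themselves lower bounds, limit Sprr2f, Lce3b, Sprr2e and Cd7. They also limit other genes: at 6 h set 2 held 2 reads of Sprr2d, 5 of Sprr2i, 13 of Slpi and 17 of Saa3. The depth of set 1 is unknown.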

Other observations

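Lists of other cell types and pathways held few or no calls at 12 h against 6 h. The 32 measured genes of the hair shaft and inner root sheath had a median change of 0.06 and 0 calls, and the inner root sheath keratins Krt25 and Krt71 had changes of 0.06 and 0.06. The 17 pigmentation genes had a median of -0.17 and 0 calls, with Tyrp1, an enzyme of melanin synthesis, at 135 and 139 FPKM at 12 h, against 157, 165 and 96.0 FPKM at 6 h. The 5 mast cell genes all had negative changes (median -0.45, 0 calls), with the protease Cma1 at 2.95 and 4.81 FPKM at 12 h, against 5.95, 6.64 and 8.76 FPKM at 6 h. The 12 endothelial genes differed between the sets, with medians of -0.39 (set 1) and 0.46 (set 2). Cldn5, a tight junction protein of endothelium, had a change of -2.04 in set 1 and -0.77 in set 2 and did not pass (adjusted p = 0.295).

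In the lists tied to signalling and metabolism, the 12 measured glucocorticoid response genes had a median of -0.28 and 0 calls, with Klf9 at 7.15 and 9.94 FPKM at 12 h, against 10.9, 20.3 and 9.47 FPKM at 6 h. Ndufa4l2, a mitochondrial protein induced by hypoxia, was at 30.6 and 34.9 FPKM at 12 h, against 108, 56.6 and 152 FPKM at 6 h. It was lower without overlap, like 8.93% of all genes, but short of the threshold (limma adjusted p = 0.0583). Xpa, the damage verification factor of nucleotide excision repair, had a change of -0.70 and Gtf2h3, a subunit of the repair and transcription factor TFIIH, of 0.57, and neither passed (adjusted p = 0.0776 and 0.0551). The 21 aminoacyl-tRNA synthetase genes had 17 positive changes, a median of 0.17 and 0 calls. The 91 cytosolic ribosomal protein genes, with Rps6k kinase genes left out, moved by a median of -0.32 within set 1 and 0.12 within set 2.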
